A study of Ovis aries with 16 samples.

Results

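Perirenal adipose tissue of growth-restricted female sheep fetuses (FFGR) was compared with that of control female fetuses (FC) by RNAseq. These were 8 of the 16 libraries of the series, 4 FFGR and 4 FC, chosen by group label alone, and the other 8 came from males. Growth restriction was produced by maternal hyperthermia, in which ewes kept in a hot environment develop a small, insufficient placenta. FC fetuses came from ewes at a moderate temperature that were pair-fed to the intake of the hyperthermic ewes, so maternal intake was matched between the groups. Singleton pregnancies of Columbia-Rambouillet ewes were used, and the labels name no genotype or drug. The tissue was taken near term, and each library held the RNA of 1 fetus, so the spread within a group was the spread between fetuses. The table holds 35219 Ensembl sheep transcripts as TPM, a length-scaled share of each library. Those at 20 TPM or more in 3 or more of the 8 libraries were tested, 4115 in all. Transcripts carry no gene names in the table, so a name is used only for 20 transcripts whose identifiers are printed with the study, 9 of adipose markers and 11 encoded by mitochondrial DNA.

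Perirenal fat of the sheep fetus is largely brown at term. Its cells are packed with mitochondria, and the uncoupling protein UCP1 lets these burn fuel as heat when the lamb is born into the cold. After birth the depot loses its thermogenic character and becomes white fat, which stores triglyceride and secretes leptin. Brown cells, white cells, stromal precursors, vessels and blood all give RNA to a bulk library, and fewer cells of a type cannot be told apart here from less RNA per cell.

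The 8 libraries had the transcripts of fat in abundance. UCP1, the adipocyte hormone adiponectin (ADIPOQ) and the fatty acid carrier FABP4 were at 1655 TPM or more in each of the 8. Vessel, blood and immune markers have no identifier among the sources used here, so their part in the results was not tested. TPM keeps no read counts, so sequencing depth is unknown. A library held 20153 to 21051 transcripts above 0, 20600 ± 325 on average in controls and 20700 ± 322 in FFGR fetuses (SD, n = 4, exact permutation test, two-sided, p = 0.657, where 4 against 4 cannot go below 0.0286). The transcripts tested held 92.1% to 93.4% of the TPM.

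Growth restriction did not separate the female libraries. Correlations across the tested transcripts ran from 0.905 to 0.955 between FC libraries, from 0.923 to 0.955 between FFGR libraries, and from 0.905 to 0.95 between an FC and an FFGR library. Principal component 1 held 25.6% of the variance, with FC2 at one end (score 25.0) and FC3 at the other (score -18.1), and all 4 FFGR libraries lay between these controls. FC scores averaged 0.414 ± 18.5 and FFGR scores -0.414 ± 11.1 (SD, n = 4, exact permutation test, two-sided, p = 0.971). On component 2, with 17.7% of the variance, 3 FFGR libraries and FC1 lay above 0, and the other 3 FC libraries and FFGR4 below it (exact permutation test, two-sided, n = 4, p = 0.2). The 2 libraries at the ends of component 1 were thus both controls.

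**Figure D1:**
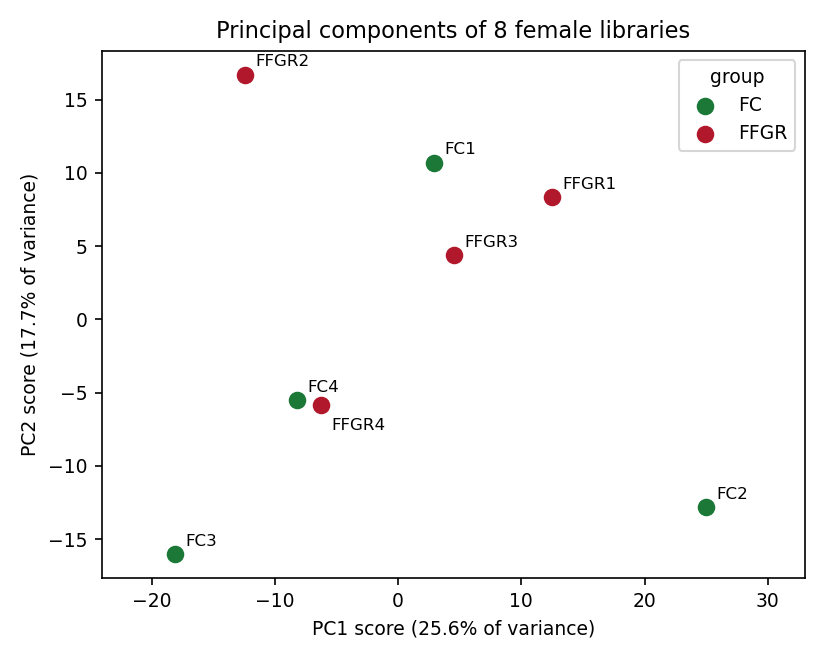
Scores of 4 FC and 4 FFGR libraries on principal components 1 and 2 of centred log2(TPM + 1) over 4115 transcripts, each point 1 fetus. The groups overlap on both components, and FC2 and FC3 lie at the ends of component 1.

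At the thresholds used, no transcript was called in either direction. The fit was limma on log2(TPM + 1) with the 8 libraries only, and calls were made at a p under 0.05 after Benjamini-Hochberg adjustment with a fold above 1.5. Of 4115 transcripts 0 were higher (0%) and 0 lower (0%), and the smallest adjusted p was 0.753. At an unadjusted p under 0.05 there were 268 transcripts (6.51%), 86 higher (2.09%) and 182 lower (4.42%). The ranges of the groups did not overlap for 159 transcripts (3.86%), 38 higher (0.923%) and 121 lower (2.94%) in FFGR. Of these, 6 of the higher were under 20 TPM in all 4 FC libraries and 9 of the lower under 20 TPM in all 4 FFGR libraries, so they passed the filter only through the group where they were high. That excess of lower transcripts moved with the scaling, since 75 transcripts lay higher without overlap after quantile normalization and 95 with median-of-ratios scaling. Those scalings left 128 and 101 lower. Groups of fewer libraries overlap less often, so every count rose when 1 was left out, to 155 higher and 143 lower without FC1 and to 60 higher and 402 lower without FC2.

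For most transcripts the unadjusted 95% interval of the difference was narrow. A call had also to pass adjustment over all transcripts tested, so differences above 2-fold went uncalled. Log2 differences had a median standard error of 0.16, which makes the median 95% interval 1.29-fold to either side. The whole interval lay within 1.5-fold either way for 2508 transcripts (60.9%) and within 2-fold for 3634 (88.3%), so a 2-fold change lay inside the interval of only 481. The middle of the distribution was close to no change, with a median log2 difference of -0.02 and 5th and 95th percentiles of -0.38 and 0.41. A difference above 2-fold was measured for 58 of the 4115 transcripts, 36 higher and 22 lower. Of the 58, 5 had ranges that did not overlap, beside 159 of all 4115 (3.86%).

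**Figure D2:**
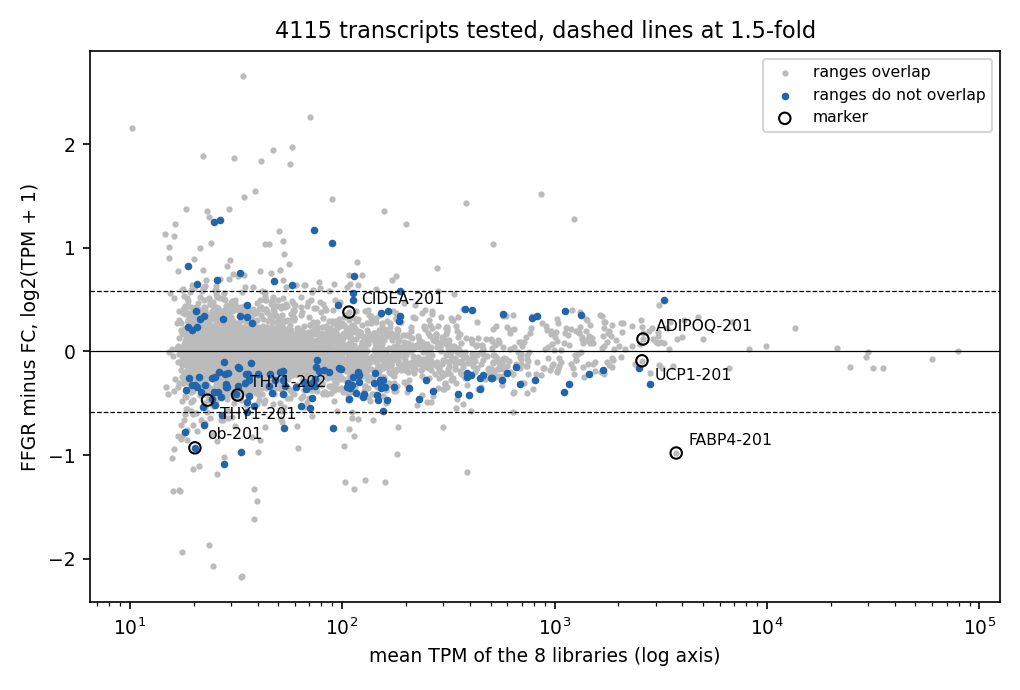
Difference between FFGR and FC means of log2(TPM + 1) against the mean TPM of the 8 libraries on a log axis, each point 1 of 4115 transcripts. Blue points are the 159 whose group ranges do not overlap, circles are marker transcripts, and dashed lines mark 1.5-fold, beyond which lie 164 points.

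Fetuses differed from one another about as much in both groups. The median SD of log2(TPM + 1) was 0.22 in FC and 0.21 in FFGR, and 1935 of the 4115 transcripts (47%) had the larger SD in FFGR. Within a group the highest fetus exceeded the lowest by over 2-fold for 639 transcripts (15.5%) in FC and 543 (13.2%) in FFGR. The 132 transcripts of the highest mean level went the other way, with a median SD of 0.13 in FC and 0.28 in FFGR. Ribosomal transcripts, described below, are among those, and in them FFGR1 and FFGR2 stood above the rest.

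By the smallest p, the transcript that led those lower in FFGR was ENSOART00020019410. It was at 45.3, 33.63, 49.25 and 49.47 TPM in FC1 to FC4 and at 18.92, 18.68, 22.43 and 29.1 in FFGR1 to FFGR4. Each growth-restricted fetus lay below each control, a log2 difference of -0.97 ± 0.18 (SE, 95% interval -1.37 to -0.57, limma adjusted p = 0.753). In males this transcript was at 0 TPM in every library but MFGR4 (0.707 TPM), so a fall could not have been seen there. ENSOART00020001257 followed, at 170.7 to 215.3 TPM in FC and 109.3 to 156 in FFGR (log2 difference -0.57 ± 0.14, SE). Among those higher in FFGR the first was ENSOART00020016124. It was at 41.67, 64.85, 29.39 and 45.7 TPM in FC and at 103.8, 107.9, 128 and 69.2 in FFGR, again with no overlap, and its log2 difference was 1.17 ± 0.26 (SE, 95% interval 0.60 to 1.75, limma adjusted p = 0.753). ENSOART00020005697 was next, at 137.3 to 170.6 TPM in FC and 184.5 to 257.6 in FFGR (log2 difference 0.58 ± 0.13, SE). Their ranges do not overlap, so leaving out 1 library could not turn a direction. The log2 differences then ran over -1.10 to -0.90, -0.68 to -0.50, 0.99 to 1.36 and 0.51 to 0.67 in that order. None of the 4 has a gene name in the sources used here.

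The brown adipocyte markers UCP1 and CIDEA were not called. UCP1, the transcript of the heat-producing uncoupling protein, was at 1839, 1803, 4430 and 2768 TPM in FC1 to FC4. In FFGR1 to FFGR4 it was at 1655, 2327, 2378 and 3441 TPM. FC3 was the highest and FFGR1 the lowest, and FFGR4 lay above the other 3 controls. The log2 difference was -0.09 ± 0.32 (SE, limma adjusted p = 0.961), with a 95% interval of 0.57-fold to 1.54-fold. It turned to 0.18 without FC3 and to 0.08 without FFGR1, so no direction can be given for UCP1.

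CIDEA, a lipid droplet protein abundant in brown fat, leaned higher in FFGR without passing the test. CIDEA-201 was at 115.5, 93.48, 75.34 and 91.01 TPM in FC and at 110.5, 121.9, 126.2 and 127.7 in FFGR. FC1 was the only control inside the FFGR range, and the FFGR fetuses lay closer together, with an SD of 7.77 TPM against 16.5 in FC. The log2 difference was 0.38 ± 0.14 (SE, 95% interval 0.07 to 0.69, limma adjusted p = 0.753). CIDEA-202, a second and scarcer transcript, was at 22.39, 10.22, 5.942 and 13.25 TPM in FC and at 14.67, 14.17, 16.09 and 13.27 in FFGR. Both transcripts together summed to 107 ± 23.3 TPM in controls and 136 ± 7.77 with growth restriction (SD, n = 4, exact permutation test, two-sided, p = 0.0857). The difference of the sums was 29.4 TPM, and 20.9 to 33 TPM without any 1 library other than FC1 (exact permutation test, p = 0.0857 to 0.143). Without FC1, the only control inside the FFGR range, it was 39.7 TPM, and p = 0.0286 then follows from the lack of overlap (exact permutation test, the smallest that 3 against 4 allow). FC3 had the highest UCP1 and the lowest CIDEA of the 8, while the 4 FFGR fetuses ranked in the same order for UCP1 and CIDEA-201.

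**Figure D3:**
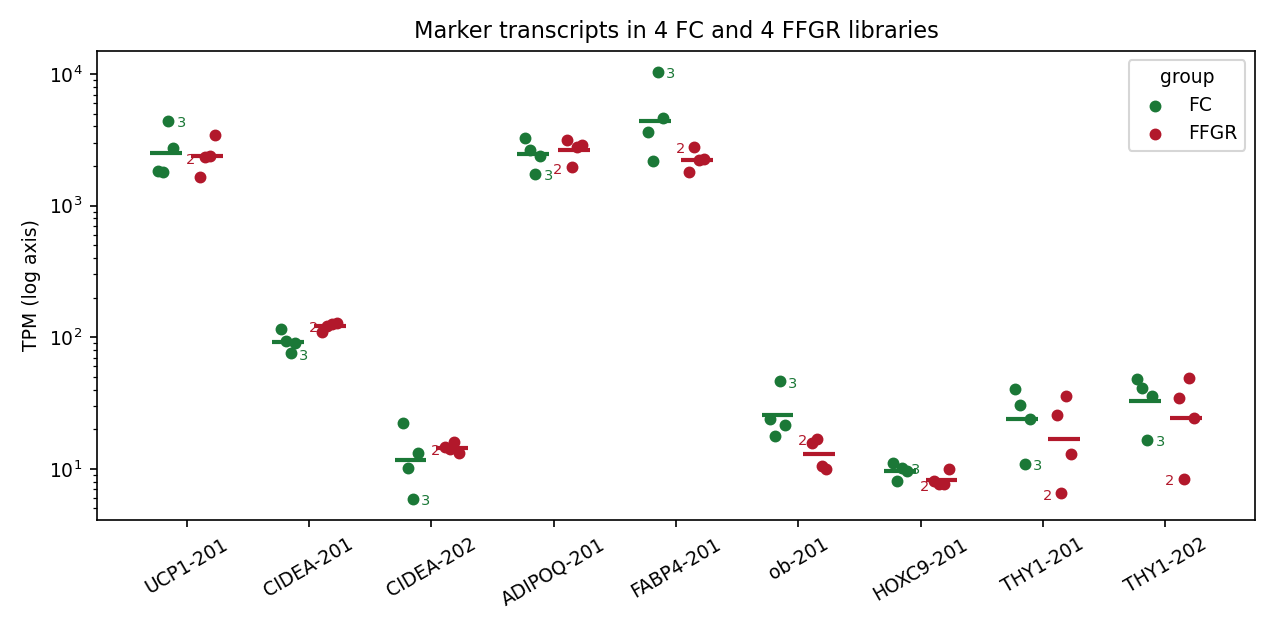
TPM on a log axis of 9 marker transcripts in 4 FC and 4 FFGR libraries, each point 1 fetus and each bar the back-transformed mean of log2(TPM + 1), with FC3 and FFGR2 numbered. The groups overlap for each marker except leptin (ob), and FC3 is the highest point for UCP1, FABP4 and leptin.

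Leptin, the hormone by which white fat reports its stores to the brain, was the only marker whose groups did not overlap. Its transcript, named ob for the obese gene, was at 23.91, 17.87, 46.25 and 21.45 TPM in FC and at 15.58, 16.9, 10.49 and 9.959 in FFGR. It passed the filter only through FC, since all 4 FFGR values were under 20 TPM. The lowest control and the highest growth-restricted fetus were within 1 TPM of each other. The log2 difference was -0.93 ± 0.31 (SE, 95% interval -1.64 to -0.23, limma adjusted p = 0.753). Without FC3 it was -0.66. A position without overlap on the lower side was shared by 121 transcripts, 2.94% of those tested.

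FABP4, which carries fatty acids inside mature adipocytes, had the lower mean in FFGR, by less when the highest control was left out. FABP4 was at 3637, 2200, 10370 and 4616 TPM in FC and at 1801, 2796, 2237 and 2251 in FFGR. Controls spanned a wide range, while the FFGR fetuses lay close together at its lower end. FC2 was the only control inside the FFGR range, and the other controls lay above it. The log2 difference was -0.98 ± 0.41 (SE, 95% interval -1.90 to -0.06, limma adjusted p = 0.753), and -0.57 without FC3. In males the same transcript leaned the other way, at 2550, 4000, 1420 and 1810 TPM in controls (MC) and at 10100, 4600, 3220 and 6180 in growth-restricted fetuses (MFGR). The difference between the sexes was -2.26 ± 0.62 on the log2 scale (SE), and it did not pass (limma interaction, adjusted p = 0.277).

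The remaining adipocyte markers overlapped between the groups. ADIPOQ, which encodes adiponectin, was at 3293, 2633, 1741 and 2392 TPM in FC and at 3167, 1953, 2774 and 2901 in FFGR (log2 difference 0.12 ± 0.22, SE, limma adjusted p = 0.929). Its 95% interval ran from 0.772-fold to 1.52-fold, and without FC3 its difference was -0.05. HOXC9, a positional homeobox gene used as a white adipocyte marker, lay under the filter and was taken from a fit with a filter of 1 TPM in 3 libraries, which kept 16001 transcripts. It was at 11.11, 8.041, 10.18 and 9.576 TPM in FC and at 8.038, 7.604, 7.61 and 9.944 in FFGR (log2 difference -0.21 ± 0.14, SE, limma adjusted p = 0.943). Of the 9 marker transcripts, then, 0 were called, 3 had a mean log2 value that was higher in FFGR and 6 lower.

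THY1, a surface protein of stromal cells and preadipocytes, varied widely between the fetuses of both groups. The first of its transcripts was at 40.37, 30.31, 10.9 and 23.73 TPM in FC and at 25.79, 6.505, 35.54 and 13 in FFGR. The second, THY1-202, ranked the fetuses of each group in the same order, at 48.3, 41.38, 16.49 and 35.53 TPM in FC and at 34.29, 8.399, 49.01 and 24.44. Summed, THY1 was at 61.8 ± 25.9 TPM in controls and 49.2 ± 29.9 with growth restriction (SD, n = 4, exact permutation test, two-sided, p = 0.571). Its low fetuses were FC3 (27.4 TPM) and FFGR2 (14.9 TPM), 1 in each group. The differences of both transcripts turned to 0.03 with a weight for each library, so THY1 has no direction here.

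The 11 transcripts encoded by mitochondrial DNA took 25.4% to 38.8% of all TPM and did not divide the groups. They code for core subunits of respiratory complexes I (ND), III (CYTB), IV (COX) and V (ATP6), through which electrons pass and ATP is made. Their summed share was 28.8%, 38.8%, 31.5% and 34.6% in FC1 to FC4 and 32.1%, 25.4%, 34.5% and 36.8% in FFGR1 to FFGR4. FC2 was the highest and FFGR2 the lowest, and the other fetuses of both groups were mixed between them. All 11 ranges overlapped, 0 were called, and the log2 differences ran from -0.16 to 0.05 with a median of -0.07, beside -0.02 over all transcripts tested.

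The subunits varied between fetuses of both groups. In complex I, ND6 was the most variable in FFGR, at 308 to 693 TPM beside 424 to 568 in FC. ND3 was at 7330 to 13100 TPM in FC and 7460 to 11800 in FFGR. ND1 was at 23400 to 36400 TPM in FC and 24900 to 37700 in FFGR, and ND5 at 4900 to 8780 in FC and 4690 to 8590 in FFGR. CYTB, of complex III, was at 19900 to 30500 TPM in FC and 16300 to 28800 in FFGR (log2 difference -0.15 ± 0.19, SE). In complex IV, COX3 was at 34850, 41270, 34010 and 38210 TPM in FC and at 33040, 27090, 36270 and 36930 in FFGR, a log2 difference of -0.16 ± 0.11 (SE, limma adjusted p = 0.807) with a 95% interval of 0.748-fold to 1.07-fold. This was the smallest adjusted p of the 11. ATP6, of complex V, had a mean of 79330 ± 10040 TPM in FC and 79900 ± 14490 in FFGR (SD, n = 4). FFGR2 was the lowest of the 8 fetuses for 7 of the 11 transcripts, and without it the median of the 11 was 0.02. TPM is a share of the library, so a mitochondrial share that moves shifts the level of each other transcript the opposite way.

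**Figure D4:**
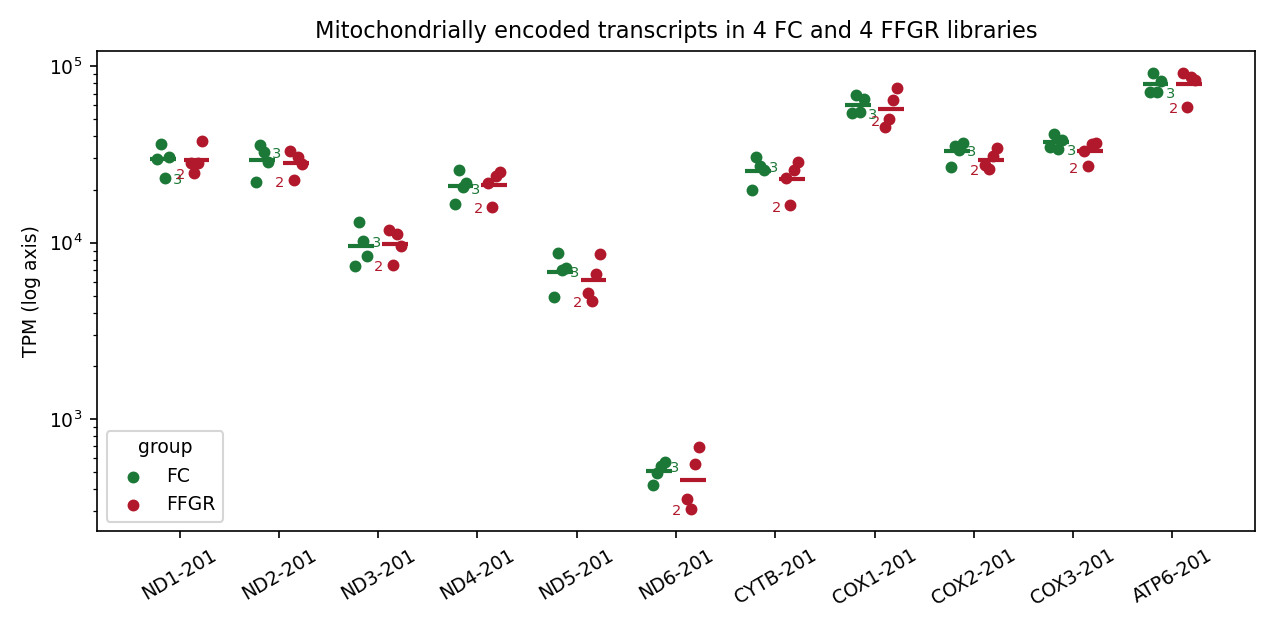
TPM on a log axis of 11 mitochondrially encoded transcripts in 4 FC and 4 FFGR libraries, each point 1 fetus and each bar the back-transformed mean of log2(TPM + 1), with FC3 and FFGR2 numbered. The groups overlap for all 11, and FFGR2 is the lowest point for 7.

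Most tested members of 2 lists, for thermogenesis and for oxidative phosphorylation, had a lower mean in FFGR. Pathway lists were taken from the supplementary material of the study. Of 17 thermogenesis transcripts listed as lower in MC than in FC, 16 were tested, 14 lower and 2 higher in FFGR, with a median log2 difference of -0.14. Over all transcripts 54.2% were lower and the median was -0.02. Its list for oxidative phosphorylation, also lower in MC, gave 10 lower and 2 higher of 12, with the same median. Both lists were chosen on the MC and FC libraries for being high in FC, and those FC libraries are the controls here, so their direction is not independent evidence. In these lists 0 transcripts were called, and 3 of the 16 and 2 of the 12 lay lower without overlap, as 2.94% of all transcripts did. The lists share most members, and together they hold 17 tested transcripts, ATP6 and 16 nuclear ones.

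The 16 nuclear transcripts summed to 15600, 14200, 14300 and 14300 TPM in FC1 to FC4 and to 12900, 13000, 12100 and 13400 in FFGR1 to FFGR4. Each control sum was above each growth-restricted one, by a margin that was small beside the level. These transcripts were chosen for being high in the same FC libraries, so that order is not independent evidence. The member with the smallest p was at 1304, 1216, 1347 and 1301 TPM in FC and at 1016, 1113, 930.5 and 1119 in FFGR (log2 difference -0.31 ± 0.10, SE, limma adjusted p = 0.753). The most abundant of the 3 that did not overlap was at 2605 to 2662 TPM in FC and 2231 to 2532 in FFGR (log2 difference -0.16 ± 0.08, SE). With the mitochondrial transcripts taken out of the TPM, the median of the thermogenesis list was -0.19. A second oxidative phosphorylation list, of transcripts higher in MC than in FC, had 7 lower and 4 higher of 11, and 4 of its 11 are mitochondrially encoded. Its median was -0.14, and -0.04 without FFGR2 or without FFGR1.

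Ribosomal transcripts, which code for the proteins of the machinery of translation, leaned higher in FFGR, and the lean was largest in 2 of the 4 fetuses. Of 18 in a list of transcripts higher in MC than in FC, 17 were higher and 1 lower in FFGR, with a median log2 difference of 0.18. A second list held 16 that were higher in MFGR than in MC, and in females 13 of them were higher and 3 lower, with a median of 0.20. The first list was chosen for being low in the same FC libraries, so its direction is not independent evidence. The second was chosen without them. Sums and counts over both lists carry the first choice in part. Of all transcripts 45.8% were higher. Together the lists hold 31 transcripts, which summed to 51200, 43500, 48400 and 44600 TPM in FC1 to FC4 and to 58600, 68900, 48200 and 42100 in FFGR1 to FFGR4. FFGR2 and FFGR1 were above every control, FFGR3 lay inside the control range, and FFGR4 below it.

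Single ribosomal transcripts showed the same split. FFGR2 was the highest of the 8 fetuses for 25 of the 31, and lay above every control for 27. FFGR1 lay above every control for 20, FFGR3 for 3 and FFGR4 for 1. None was called, and 1 of the 18 in the first list lay higher without overlap, as 0.923% of all transcripts did, at 349.8, 366.2, 361.3 and 231.2 TPM in FC and at 448, 489.1, 385.5 and 398.2 in FFGR (log2 difference 0.41 ± 0.17, SE, limma adjusted p = 0.753). The most abundant was at 13360, 11390, 12010 and 12380 TPM in FC and at 16540, 18230, 12860 and 11080 in FFGR (log2 difference 0.23 ± 0.16, SE). Without FFGR2 the list medians fell to 0.07 and 0.05, and without FFGR4 they were 0.31 and 0.32. FFGR2 also had the lowest mitochondrial share. With the mitochondrial transcripts taken out of the TPM, the 31 summed to 71900, 71100, 70700 and 68200 TPM in FC1 to FC4 and to 86200, 92300, 73600 and 66600 in FFGR1 to FFGR4, and the list medians were 0.16 and 0.17. On that scale FFGR3 also lay above every control, so its place depended on the mitochondrial share.

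**Figure D5:**
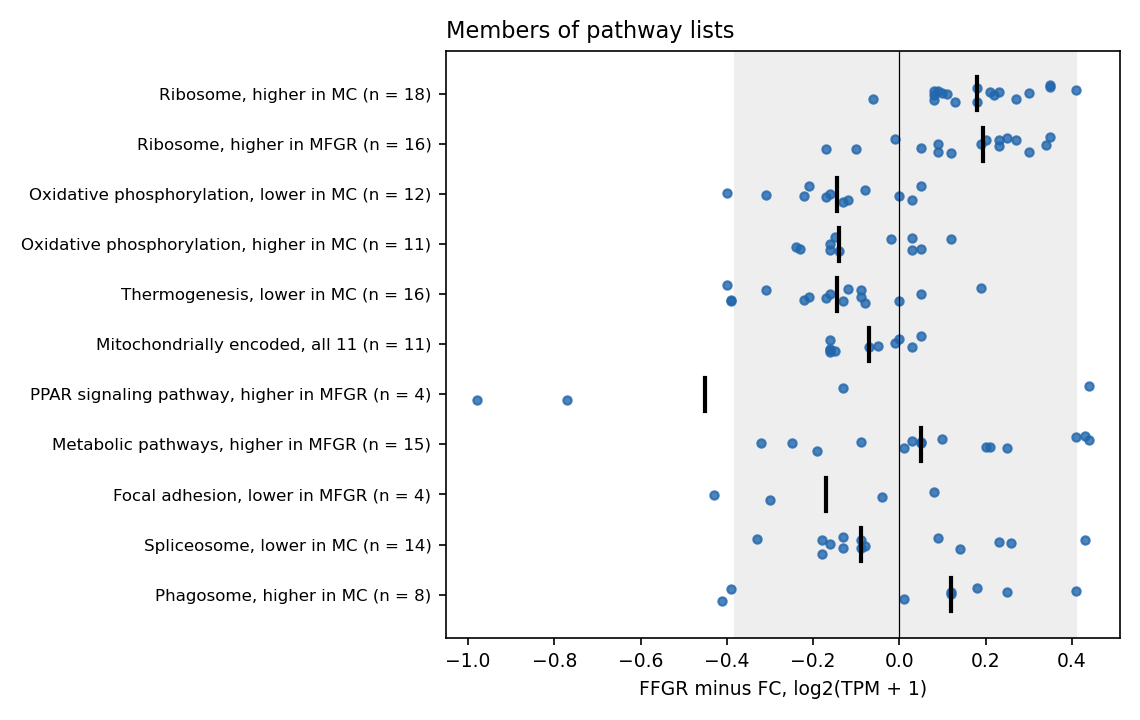
Difference between FFGR and FC means of log2(TPM + 1) for the tested members of 10 pathway lists of the study and the 11 mitochondrially encoded transcripts, each point 1 transcript and each bar the list's median. The grey band runs from the 5th to the 95th percentile of all 4115 transcripts (-0.38 to 0.41), and the ribosome medians lie at 0.18 and 0.20 and the thermogenesis median at -0.14.

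The PPAR signaling list, whose members serve the nuclear receptors that drive fat cell differentiation, had a median that depended on 1 control. The study gives it as higher in MFGR than in MC. Its 4 tested transcripts, FABP4 among them, had a median log2 difference of -0.45 in females, and -0.11 without FC3. A second member was at 16.85, 9.034, 58.94 and 26.02 TPM in FC and at 11.42, 24.16, 11.23 and 8.023 in FFGR (log2 difference -0.77 ± 0.54, SE), again with FC3 the highest. The only member that was higher was at 31.21, 30.77, 32.91 and 20.84 TPM in FC and at 52.95, 34.13, 31.12 and 41.33 in FFGR (log2 difference 0.44 ± 0.20, SE, limma adjusted p = 0.753). The 4 transcripts summed to 3770, 2330, 10600 and 4750 TPM in FC and to 1960, 2960, 2370 and 2380 in FFGR, most of it FABP4.

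Other lists had no called member in females. Steroid biosynthesis, listed as lower in MFGR, had 2 tested transcripts with log2 differences of -0.15 and 0.22. Of the 4 tested focal adhesion transcripts, listed in the same way, 3 were lower and 1 higher, with a median of -0.17, which was -0.36 to -0.03 when single libraries were left out. The 6 transcripts of the focal adhesion list, tested or not, summed to 526, 444, 269 and 505 TPM in FC1 to FC4 and to 371, 277, 617 and 258 in FFGR1 to FFGR4, so FFGR libraries held both ends of the range. Metabolic pathways had 11 of 15 higher and a median of 0.05, and xenobiotic metabolism by cytochrome P450 had 3 of 4 higher and a median of 0.11. Phagosome transcripts, listed as higher in MC, had 6 of 8 higher and a median of 0.12. Spliceosome transcripts, listed as lower in MC, had 9 of 14 lower and a median of -0.09. The FC libraries helped to choose these last 2 lists.

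The female difference was set against the male one in a fit of all 16 libraries. Over the same 4115 transcripts, 0 passed for the interaction of sex and growth restriction (0%, limma, smallest adjusted p = 0.277). At an unadjusted p under 0.05 there were 461 of the 4115, beside 268 (6.51%) for FFGR against FC. The median standard error of the interaction was 0.24. With a weight for each library 49 were called. Among the named transcripts ENSOART00020001257 had the smallest interaction p, with log2 differences of -0.57 in females and 0.20 in males (interaction -0.77 ± 0.17, SE, limma adjusted p = 0.277). ENSOART00020016124 was at 1.17 in females and -0.57 in males (limma interaction, adjusted p = 0.277). Both were named for their small p in females. The interaction uses that female difference again, so their choice favoured a large interaction. CIDEA-201 was at 0.38 in females and -0.07 in males (interaction 0.45 ± 0.20, SE, limma adjusted p = 0.441). Leptin was lower with growth restriction in both sexes by its mean, at -0.93 and -0.34, and its ranges overlapped in males.

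Scarcer transcripts gave the few calls there were. When the filter was lowered to 1 TPM in 3 libraries, 3 of 16001 transcripts were called in limma (0.0187%), 2 higher and 1 lower, and they are named here after their values were seen. Each passed this filter only through the group in which it was high, so a difference was built into their selection. ENSOART00020004487 was listed at 0 in all FC libraries and at 13.186, 18.384, 17.48 and 14.98 TPM in FFGR (adjusted p = 1.58e-05). In males it was at 5.834, 6.055, 43.592 and 5.855 TPM in MC and at 6.562, 0, 8.327 and 3.458 in MFGR. ENSOART00020025736 was likewise listed at 0 in all FC libraries, and at 3.661, 7.186, 6.424 and 5.279 TPM in FFGR (adjusted p = 0.00543). Its male values were 0, 3.981, 6.269 and 5.566 TPM in MC and 0, 3.236, 3.811 and 0 in MFGR, so zeros occurred in both male groups. ENSOART00020032497 was at 13.298, 5.91, 8.852 and 6.409 TPM in FC and at 0.395, 0, 0 and 0 in FFGR (adjusted p = 0.00638). In females these were present in 1 group and absent or nearly so in the other, but under 20 TPM in every female library. A 0 in a table without counts can be a failed estimate. All 3 were also called with a pseudocount of 0.1 and whichever 1 library was left out, although the number of calls then ran from 3 to 9, with 9 without FC1 and 8 each without FC2 and FFGR1. With a pseudocount of 10, 1 was called, ENSOART00020004487. In a fit of all 16 libraries 4 were called, of which 2 were among these 3, and ENSOART00020025736 was not (adjusted p = 0.256).

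Above the filter no transcript was gained or lost outright. Under 1 TPM in all 4 libraries of one group and at 20 TPM or more in at least 3 of the other, there were 0 transcripts in either direction. Dropping out of single fetuses was more frequent, as 46 transcripts (1.12%) were under 1 TPM in at least 1 of the 8 libraries and at 20 TPM or more in at least 3. Of these, 28 dropped out in 1 library, 9 in 2, 5 in 3 and 4 in 4. FC2 lacked 19 of the 46, the most of any library. With FC2 left out of the fit, 1 transcript was called. ENSOART00020029329 was at 15.631, 92.425, 8.455 and 15.166 TPM in FC and at 74.687, 90.119, 158.647 and 113.054 in FFGR, and was called without FC2 (log2 difference 2.96, limma adjusted p = 0.0389), against an adjusted p of 0.753 with all 8 libraries. It was named after its values were seen. Its other FC values were all under 20 TPM. Without FC2 only FFGR, where it was high, met the filter, so a difference was then built into its selection.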

How the data were processed

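The authors isolated total RNA, sequenced it, checked reads with FastQC 0.11.9, quantified them with Salmon against Ensembl sheep transcripts, and deposited TPM values, which sum to 1e+06 per library. Counts and columns of the authors' comparisons were not used here. Values were taken as log2(TPM + 1), which understates changes of scarce transcripts, and fitted for the 8 female libraries with limma 3.58.1 in R 4.3.3. The fit had a trended prior variance, 6 residual degrees of freedom, no covariate and Benjamini-Hochberg adjustment over all transcripts tested. Labels gave the groups and no batch. Fits were tested on simulated data. Single values had two-sided exact permutation tests. Names and lists came from transcript identifiers printed with the study, and lists printed in part were left out. TCF21 was left out because its printed identifier is also that of CIDEA-202, and 8 genes tabled for FFGR against FC carry no transcript identifier. Named transcripts were all usable adipose and mitochondrial ones and the 2 higher and 2 lower with the smallest p. Members, lists and tests were chosen with earlier results of these data known. Alternatives were other pseudocounts, filters, scalings, variance models and libraries.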

Additional observations from a re-analysis of the deposited data

Results flagged for a closer look

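FFGR2 stood apart from the other 3 FFGR libraries on principal component 3, which held 16% of the variance, with a score of -20.1 beside 2.37 to 5.91 in the others. Its summed level of the 19 transcripts of the metabolic pathway list, given as higher in MFGR and tested or not, was 3140 TPM, beside 2520 to 2620 TPM in the others. Both gaps were a larger share of the group's range (0.864 and 0.839) than Dixon's 95% critical value for 4 libraries. The search covered 110 groups of 4 libraries, and about 5% of groups exceed that share by chance.

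ENSOART00020032497, lower in FFGR than in FC at the 1 TPM filter, had an interaction of sex and growth restriction of -3.75 on the log2 scale (limma interaction, adjusted p = 0.00445). It passed that filter only through FC and was named for its female difference, which the interaction uses again. Its levels were 13.298, 5.91, 8.852 and 6.409 TPM in FC and 0.395, 0, 0 and 0 in FFGR. In males it was near the floor in both groups, at 0.995, 0, 0 and 0 TPM in MC and at 1.087, 1.565, 0.164 and 1.01 in MFGR, so a fall of this size could not have been seen there. A difference in response between the sexes can therefore not be read from this interaction.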

How the results depend on the processing

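The counts of calls depended on the filter. At 1 TPM, as without a filter, 2 transcripts were called higher and 1 lower, 3 at any fold. More transcripts were tested there, 16001 and 27638 beside 4115. Of these, 838 and 1198 had an unadjusted p under 0.05, beside 268 of the 4115 (6.51%). With no overlap, 202 of the 16001 and 257 of the 27638 were higher, beside 38 of the 4115 (0.923%). In the same order 271 and 356 were lower, beside 121 (2.94%). Median-of-ratios scaling gave 95 higher without overlap and quantile normalization 75. With a weight for each library 570 had an unadjusted p under 0.05, and 49 interactions were called. When 1 library was left out, 0 to 1 transcript was called higher, 0 to 1 passed at any fold, 176 to 369 had an unadjusted p under 0.05, and 55 to 155 lay higher and 143 to 402 lower without overlap. The lowest counts at unadjusted p were 177 without FC3 and 176 without FFGR2. At the 1 TPM filter, in settings chosen after seeing the data, 3 to 9 transcripts were called without 1 library (9 without FC1, 8 each without FC2 and FFGR1) and 1 with a pseudocount of 10.

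The CIDEA sum differed by 20.9 to 39.7 TPM without single libraries. List medians ranged from -0.19 to -0.12 for thermogenesis, which was -0.19 also without the mitochondrial transcripts, from -0.12 to -0.04 for oxidative phosphorylation listed as higher in MC and for the Huntington and prion disease lists that share its members, and from -0.16 to 0.09 for single transcripts listed as higher in MFGR.

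None of the named differences that turned was called. Both THY1 transcripts, at -0.47 and -0.42 with equal weights, were at 0.03 with library weights. With quantile normalization ND1 was at 0.04, ND2 at 0.01, ND3 at -0.05, ND4 at -0.17, COX1 at 0, COX2 at 0 and ATP6 at 0. With median-of-ratios scaling ND1 was at 0.02 and ATP6 at 0.04, and with library weights ND2 was at 0.05 and ATP6 at 0.06. Without single libraries the range was -0.27 to 0.18 for UCP1, 0 to 0.58 for CIDEA-202, -0.05 to 0.26 for ADIPOQ, -0.74 to 0.06 for THY1-202, -0.13 to 0.08 for ND1, -0.18 to 0.06 for ND2, -0.08 to 0.20 for ND3, -0.08 to 0.17 for ND4, -0.36 to 0.02 for ND6, -0.27 to 0.02 for CYTB, -0.20 to 0.04 for COX1 and -0.07 to 0.14 for ATP6. The cause was not tested. CIDEA-201, FABP4, leptin, HOXC9 and the 4 unnamed transcripts kept their direction when single libraries were left out.

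No pairing by replicate number was seen (correlations of deviations 0.14, -0.11, -0.09 and 0), although 4 such values cannot exclude one. With the replicate block 0 transcripts were called and 226 had an unadjusted p under 0.05. Depth is unknown, and 4 fetuses a group limit precision.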
